A study of Mus musculus with 6 samples.

Results

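The genes described here are the inducible brakes of the ERK pathway: the MAP kinase phosphatases Dusp1, Dusp2, Dusp4, Dusp5 and Dusp6, the Sprouty genes Spry1, Spry2 and Spry4, and the SPRED genes Spred1 and Spred2. They were picked by gene symbol, with earlier results of these data known. Every probe set that the array's annotation gives to 1 of them was read. A probe set is a group of short probes on the array that reads part of a transcript. All 10 genes had at least 1, and together they had 25 of the 45037 probe sets tested. Each Dusp gene and Spry1 had 1 probe set, Spry2 had 2, Spry4 had 4, Spred1 had 8 and Spred2 had 5.

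Expression was measured on 6 Affymetrix mouse genome-wide arrays in Ba/F3 cells, a mouse BALB/c haematopoietic line that needs interleukin-3 and was fed here with WEHI-3 supernatant. All samples carried PAX5-KIDINS220, a fusion of a B-lineage transcription factor with a membrane scaffold protein, under a retroviral Tet-on promoter. The Dox(+) group (3 arrays) had 500 ng/mL doxycycline for 24 h, which switches the fusion on, and the Dox(-) group (3 arrays) had none. The study asked what signalling the fusion alters. Cells without the fusion that were given doxycycline are not analysed here, so the drug and the fusion cannot be told apart. Nothing in the labels tells separate cultures from repeat samples of 1 culture, so each p-value measures array-to-array spread, part or all of which may be technical.

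The array codes in the sample titles divide the arrays into 2 sets, called EA15 (1 Dox(+) and 1 Dox(-) array) and EA20 (2 of each). The labels do not say what the codes stand for. In EA20 the codes of the Dox(+) arrays come before those of the Dox(-) arrays, so within that set a drift along the codes and the treatment cannot be told apart. Signals below are linear units after the scaling that gave each array a trimmed mean of 500, and in every list of 3 the EA15 array comes first. Median signals per array were 56.3 to 65.6. Of the fusion's partner genes, Pax5 probe set 1421765_at gave 119, 94.5 and 94.2 in Dox(+), against 15.6, 3.76 and 20.3 in Dox(-), a log2 difference of 2.06 (SE 0.37, limma adjusted p 0.12). The other Pax5 probe set, 1454401_at, gave 51.6, 133 and 48.1 in Dox(+), against 23.9, 92.0 and 81.4 in Dox(-), groups that overlap, with a log2 difference of 0.21 (SE 0.40, limma adjusted p 0.92). The 4 Kidins220 probe sets had folds of 0.945 to 1.19, and none passed. Which of these probe sets lie within the fusion transcript was not tested. The receptor genes of the line were present, with Il3ra at 317 to 898 in Dox(+) and 296 to 827 in Dox(-), and Csf2rb at 9119 to 22447 and 8398 to 20490. Kit and Cd34, also listed as markers of the line, were dim, at 3.16 to 68.1 in Dox(+) and 13.9 to 45.0 in Dox(-). The summed signal of 5 macrophage markers, which the WEHI-3 cells that made the supernatant could bring, was 1280 to 1713 in Dox(+) and 1375 to 1562 in Dox(-). Most of it was Adgre1, at 712 to 1166 over both groups. Csf1r, Lyz2 and Cd68 were at 95.3 to 406, and Cd14 was dim, at 7.48 to 59.1. The summed signal of 4 B cell markers was 645 to 910 and 528 to 785, most of it Cd79b, with Cd79a at 8.57 to 45.6. The summed signal of 4 T cell markers was 82.1 to 177 in Dox(+) and 99.4 to 166 in Dox(-), that of 4 stromal markers was 99.9 to 139 and 83.1 to 134, and that of 4 epithelial markers was 213 to 279 and 125 to 230. No marker gene passed the doxycycline test (0 of 28 by limma, 1 at an unadjusted p under 0.05, Spi1). Over all genes, each by its brightest probe set, 5.93% were higher and 5.31% lower at that unadjusted limma p. In a bulk RNA sample, fewer cells of a type and less RNA per cell cannot be told apart.

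Growth factor and cytokine receptors, that for interleukin-3 among them, activate RAS, which starts the kinase chain from RAF through MEK to ERK. Active ERK enters the nucleus and turns on genes that in turn shut the chain off. The DUSP proteins remove phosphate from the ERK, JNK and p38 kinases, Sprouty proteins act at the membrane between the receptor and RAF, and SPRED proteins bring the RAS inhibitor neurofibromin to the membrane. Because ERK itself raises many of these transcripts, their mRNA is widely used as a readout of how active the pathway has been.

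Dusp1 and Dusp5 are known as immediate early genes, and their promoters are shown because they alone, of the 8 member genes found in the promoter table, held any of the sequence motifs searched. The sequences are from RefSeq (GRCm38.p6) and run from base 200 to base 51 before the gene's start, 5′ to 3′ on the gene's strand, in lower case with the motif in capitals. In Dusp1 the capitals mark a cyclic AMP response element (CRE, TGACGTCA), 143 bases before the start, on the minus strand at chr17:26508523-26508672. In Dusp5 they mark a pair of adjoining CArG boxes, the binding sequence of serum response factor, 82 and 72 bases before the start, on the plus strand at chr19:53528945-53529094.
Dusp1: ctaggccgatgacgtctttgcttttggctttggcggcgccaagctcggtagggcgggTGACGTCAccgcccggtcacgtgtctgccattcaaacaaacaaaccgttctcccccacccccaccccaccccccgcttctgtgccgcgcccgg
Dusp5: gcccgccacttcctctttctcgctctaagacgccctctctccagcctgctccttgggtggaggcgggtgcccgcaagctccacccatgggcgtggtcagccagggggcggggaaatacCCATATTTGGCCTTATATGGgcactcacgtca
Over both strands of the 250 bases before the start, the CRE was in 1 of 8 member promoters and in 1.55% of 32851 promoters. The CArG box was likewise in 1 of 8 and in 1.47%, and this motif was added after the member promoters had been read. An AP-1 site (TGANTCA) was in 0 of 8 and in 6.75% of all, and an ETS core (CCGGAA) in 0 of 8 and in 12% of all. No motif match overlapped a different motif in the member promoters. These are matches of letters in a short window and say nothing of binding in these cells.

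After 24 h of doxycycline no ERK brake passed the test. By limma with a block for the array set, 0 of the 25 probe sets were higher and 0 lower at a Benjamini-Hochberg adjusted p under 0.05, while over all 45037 probe sets 0.0577% were higher and 0.0289% lower. At an unadjusted p under 0.05, 1 member probe set was higher (Dusp6) and 1 lower (Dusp4), against 4.58% and 4.86% of all probe sets. No member passed without the block or in EA20 alone, where 0% and 0.124% of all probe sets did. At an unadjusted p under 0.05 these fits held 0 and 1 member (Dusp4 in EA20), against 2.98% and 10.8% of all. The median log2 difference, Dox(+) minus Dox(-), was -0.09 over the 25 and -0.01 over all probe sets, with 16 of the 25 below 0 against 51.4% of all. The median size without regard to sign was 0.18 for both. Log2 differences, and the folds and ratios drawn from them, are of log2(signal + 16). This understates changes at low signals, in dim probe sets most.

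Both array sets gave the same sign for 13 of the 25 probe sets, 6 positive and 7 negative, against 53.2%, 25.9% and 27.3% of all probe sets. Within each set by itself, all Dox(+) arrays lay above all Dox(-) arrays of that set for 3 members (Dusp6, Spry1 and the Spred2 probe set 1436892_at), against 10.8% of all probe sets. They lay below in both sets for 3 others (Dusp4, Spry2 1436584_at and Spred1 1460116_s_at), against 11.6% of all. The difference of the doxycycline response between the sets, tested as an interaction, passed for 0 of 25 and for 0% of all probe sets. At an unadjusted p under 0.05 it held 1 member, Dusp1, against 5.99% of all. That test assumes that the lone arrays of EA15 vary like those of EA20.

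**Figure D1:**
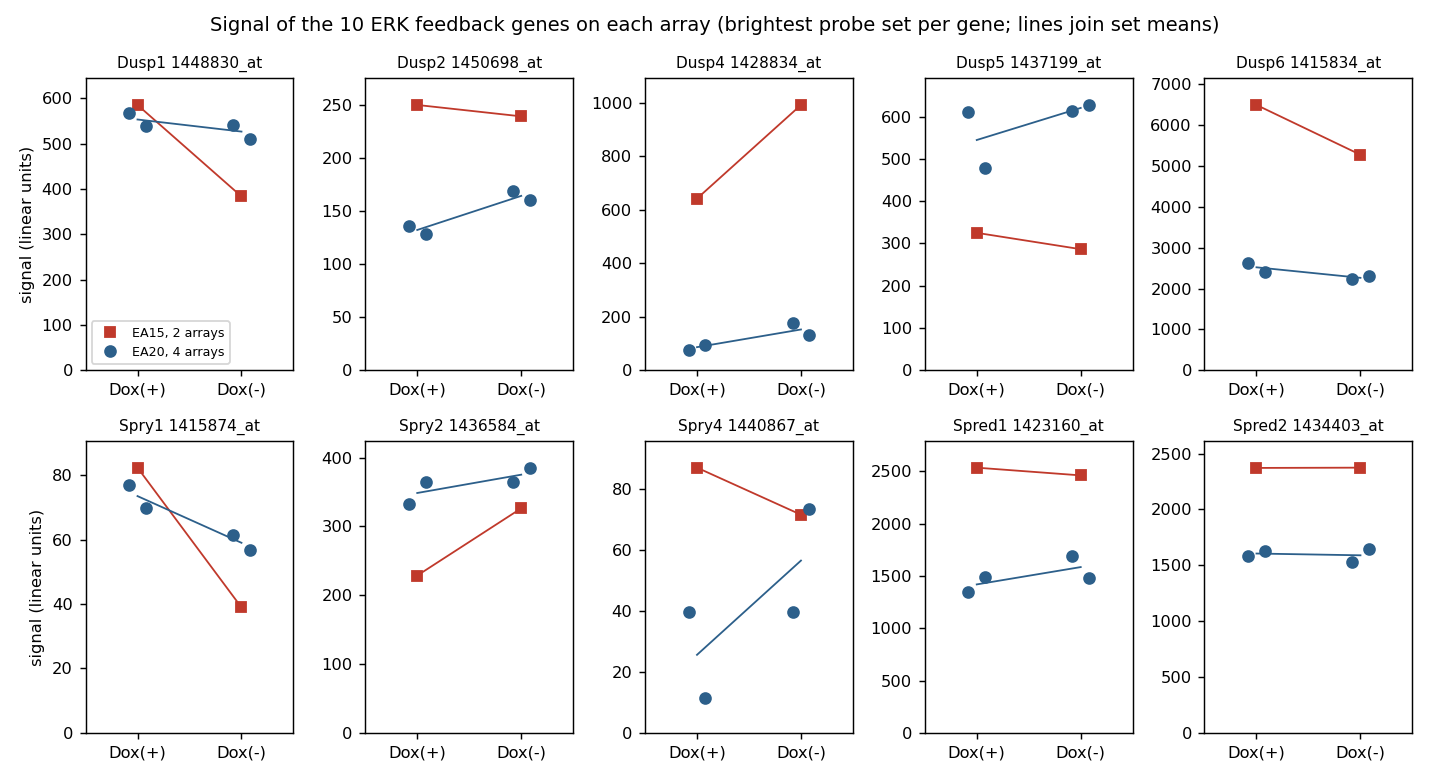
Signal (linear units, axes from 0) of the brightest probe set of each of the 10 genes, Dox(+) left and Dox(-) right, with 1 point per array, squares for EA15 and circles for EA20. Lines join the means of each set. In Dusp4 both lines are lower on the Dox(+) side, in Dusp6 and Spry1 both are higher there, and in Dusp2, Dusp4, Dusp6, Spred1 and Spred2 the EA15 squares stand above all EA20 circles.

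Among the nuclear phosphatases, Dusp4 had the lowest p of all 25 probe sets and was lower with doxycycline in both sets. Dusp4 (also MKP-2) is induced by ERK and dephosphorylates ERK and JNK in the nucleus. Its probe set 1428834_at had signals of 641, 76.6 and 95.8 in Dox(+), against 991, 175 and 130 in Dox(-). The groups overlap as a whole, because the EA15 arrays were far brighter than the EA20 arrays, but within each set every Dox(+) array was below every Dox(-) array. The level in Dox(+) was 0.653 of that in Dox(-) in EA15 and 0.61 in EA20, and 0.624 in the blocked fit (95% interval 0.485 to 0.803). The log2 difference of -0.68 (SE 0.16) did not pass, with a limma p of 0.0021 and an adjusted p of 0.23, and it ranked 421 of 45037 by p. Without the block the same difference had an SE of 0.95 and a limma p of 0.50.

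Dusp1 (MKP-1), the immediate early phosphatase whose promoter holds the CRE shown above, acts on JNK, p38 and ERK. It gave 585, 568 and 539 in Dox(+), against 383, 542 and 511 in Dox(-). The EA15 Dox(-) array was the low one, and the other 5 arrays lay between 511 and 585. The ratio was therefore 1.51 in EA15 and 1.05 in EA20, and the blocked estimate was 1.18 (0.983 to 1.42, limma adjusted p 0.57). Its interaction of treatment and set was 0.52 on the log2 scale, EA15 minus EA20, with a limma p of 0.02 and an adjusted p of 0.83.

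Dusp2 (PAC-1) is a nuclear phosphatase of blood cells. Its signals were 250, 136 and 128 in Dox(+), against 239, 169 and 160 in Dox(-). In EA20 both Dox(+) arrays were below both Dox(-) arrays, and in EA15 the order was the opposite. The fold was 0.889 (0.685 to 1.16, limma adjusted p 0.81), with ratios of 1.04 in EA15 and 0.822 in EA20.

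Dusp5, the nuclear phosphatase that acts on ERK alone and carries the CArG boxes shown above, gave 325, 612 and 478 in Dox(+), against 287, 614 and 628 in Dox(-). A single EA20 array, Dox(+) replicate 3, was below the other EA20 arrays, and without it the log2 difference turned to 0.06. The fold was 0.952 (0.784 to 1.16, limma adjusted p 0.91), with ratios of 1.13 in EA15 and 0.874 in EA20.

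Dusp6 (MKP-3), the phosphatase of the cytoplasm that is selective for ERK, was slightly higher with doxycycline in both sets. Its probe set 1415834_at gave 6496, 2624 and 2416 in Dox(+), against 5276, 2223 and 2301 in Dox(-). As with Dusp4 the groups overlap across sets and are apart within each. The ratio was 1.23 in EA15 and 1.11 in EA20, and the fold 1.15 (1.04 to 1.28), with a limma p of 0.013 and an adjusted p of 0.37. Dusp4 and Dusp6, both ERK-induced phosphatases, thus had differences of opposite sign, -0.68 and 0.20 on the log2 scale, neither past the threshold.

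**Figure D2:**
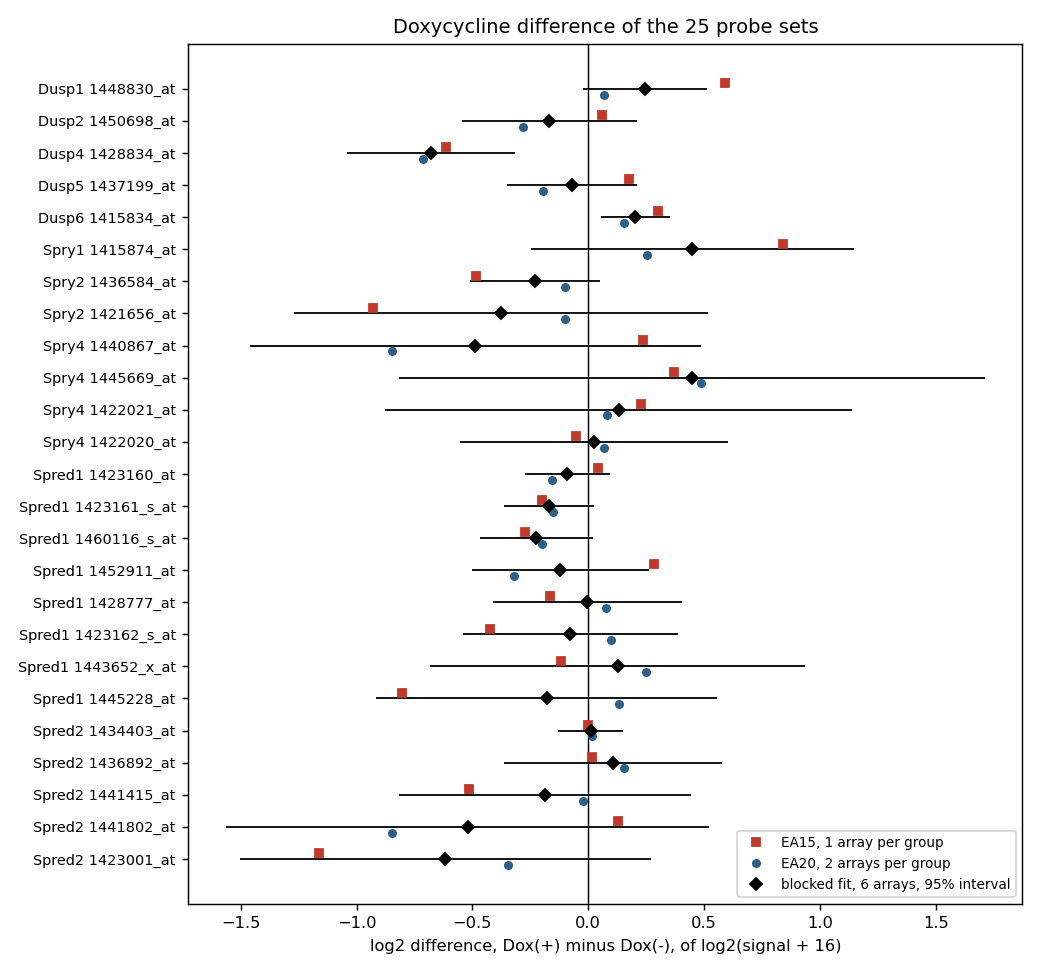
Log2 difference, Dox(+) minus Dox(-), of each of the 25 probe sets. Diamonds are the fit over 6 arrays with the array set as a block, with 95% intervals, squares the EA15 ratio (1 array per group) and circles the EA20 ratio (2 per group). The intervals of Dusp4 (-1.04 to -0.32) and Dusp6 (0.05 to 0.35) are the ones that do not reach 0, and none of the 25 passed after adjustment.

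Of the Sprouty genes, which inhibit signalling from receptor tyrosine kinases to RAS and RAF, none passed the test. The estimates of Spry1 and Spry2 had opposite signs, with intervals that include no change, and Spry4 gave no steady reading. Spry1 1415874_at gave 82.3, 77.0 and 69.9 in Dox(+), against 38.9, 61.3 and 56.7 in Dox(-). It was the only member whose 3 Dox(+) arrays all lay above the 3 Dox(-) arrays, and 0 lay wholly below, against 3.75% above and 3.99% below over all probe sets. The means were 76.4 ± 6.21 and 52.3 ± 11.8 (SD, n = 3 each). The fold was 1.37, with a wide interval (0.842 to 2.21, limma adjusted p 0.71), and the ratio 1.79 in EA15 and 1.19 in EA20.

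Spry2 was read by 2 probe sets, both with a ratio below 1 in each set. The brighter, 1436584_at, gave 229, 333 and 364 in Dox(+), against 326, 365 and 385 in Dox(-). In EA20 the groups were a single signal unit apart (364 in Dox(+), 365 in Dox(-)), and most of the difference came from EA15, with ratios of 0.715 in EA15 and 0.931 in EA20. Its fold was 0.853 (0.703 to 1.03, limma adjusted p 0.61). The other, 1421656_at, gave 34.5, 21.2 and 53.3 in Dox(+), against 80.0, 33.9 and 43.5 in Dox(-), a fold of 0.77 (0.415 to 1.43). In EA20 its Dox(+) arrays lay on both sides of its Dox(-) arrays, at a ratio of 0.933.

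Spry4 is a Sprouty gene widely used as a marker of ERK activity. Of its 4 probe sets, 3 had mean signals under 36.3, the 40th percentile of all probe sets, below which a probe set is called dim here. The brightest, 1440867_at, had a mean signal of 53.8, at the 48th percentile, and gave 87.0, 39.7 and 11.5 in Dox(+), against 71.5, 39.6 and 73.3 in Dox(-). Replicate 3 of Dox(+) stood alone at 11.5, and the other 5 arrays overlapped. The folds of the 4 ran from 0.713 to 1.36, with 1 below 1 and 3 above, and the probe sets thus disagreed. The interval of 1440867_at, 0.363 to 1.40, holds changes larger than 2-fold in the downward direction, so a change of that size could not be told from none with these arrays.

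Spred1 and Spred2, which restrain RAS through neurofibromin, had narrow intervals on their bright probe sets, and none of their 13 probe sets passed. Spred2 1434403_at gave 2371, 1581 and 1629 in Dox(+), against 2374, 1533 and 1646 in Dox(-). The groups overlap almost completely, with a fold of 1.01 and the narrowest interval of the 25, 0.912 to 1.11 (limma adjusted p 0.98). This interval leaves out changes of more than 1.11-fold up and 0.912 down. Of its other 4 probe sets, 1436892_at was at 1.08 (0.778 to 1.49) and the remaining 3 had folds of 0.652 to 0.878 with wider intervals, each reaching above 1.

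Spred1 had 8 probe sets with folds of 0.856 to 1.09, 7 of them below 1 and none past the threshold. One of the 7, 1428777_at, was at 0.997. Only 1423161_s_at and 1460116_s_at had ratios below 1 in both array sets. The brightest, 1423160_at, gave 2535, 1350 and 1488 in Dox(+), against 2461, 1694 and 1476 in Dox(-), a fold of 0.94 (0.828 to 1.07, limma adjusted p 0.79). In EA20 the Dox(+) array at 1488 lies between the Dox(-) arrays, so the groups overlap there. The lowest fold was that of 1460116_s_at, with 356, 334 and 333 in Dox(+), against 433, 356 and 419 in Dox(-), a fold of 0.856 (0.723 to 1.01, limma adjusted p 0.57). Within each array set the Dox(+) arrays lay below the Dox(-) arrays, and across sets the groups met at 356. A further probe set, 1423161_s_at, read 0.89 (0.778 to 1.02). Probe sets whose names end in _s_at or _x_at can also read other transcripts.

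The ERK brakes, like the probe sets as a whole, differed more between the array sets than between Dox(+) and Dox(-). In the same fit, 7 of the 25 probe sets were higher in EA15 and 2 lower, at a limma adjusted p under 0.05, against 11.4% higher and 13.4% lower over all probe sets. The members' median log2 size, EA15 against EA20 without regard to sign, was 0.57, and that of all probe sets 0.35. With doxycycline it was 0.18 for both. Among the 20 member probe sets that were not dim, the 7 higher and 2 lower stand against 18.1% and 21.9% of all such probe sets. The median sizes there were closer, 0.49 for the members and 0.40 for all. What the sets stand for is not known here, and the difference may be technical, in the cells or both, which cannot be told apart.

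Dusp4 had the largest of these differences among the 25 probe sets, at 6.25-fold (4.78 to 8.16, limma adjusted p 4.4e-06), with a mean over both treatments of 816 ± 247 (SD, n = 2) in EA15 and 119 ± 43.0 (n = 4) in EA20. Dusp6 was 2.44-fold higher in EA15 (2.19 to 2.73, limma adjusted p 1.7e-06), with means of 5886 ± 863 and 2391 ± 174. Dusp2 was 1.59-fold higher (1.21 to 2.10, limma adjusted p 0.02). Dusp5 went the opposite way, at a fold of 0.539 (0.439 to 0.663, limma adjusted p 0.00067), with means of 306 ± 27.4 and 583 ± 70.5. Dusp1 was at 0.882 (0.725 to 1.07) and did not pass.

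The other members that were higher in EA15 were the 2 brightest Spred1 probe sets, by 1.66-fold and 1.93-fold, and the Spred2 probe sets 1434403_at and 1441802_at, by 1.48-fold and 2.96-fold. In EA20, 1441802_at gave 11.9 and 10.5 in Dox(+), against 13.4 and 65.5 in Dox(-), so most of these signals were very low. The second lower one was Spred1 1443652_x_at, at 0.337. Its EA15 signals were 5.93 and 7.83, and its mean of 37.5 was just above the limit for dim. The Spred1 probe sets that passed thus disagreed in direction, with the lower one near the floor. Of the 8, 5 did not pass in either direction. No Sprouty probe set passed between the sets (limma adjusted p of 0.064 for Spry2 1436584_at and 0.21 to 0.82 for the others). Of the 7 markers of the line, 5 were lower in EA15 at the same threshold, against 13.4% of all probe sets and 21.9% of those not dim. The median log2 difference of the 7 markers was -1.11. Their part in the set difference of the ERK brakes was not tested. The 3′ to 5′ signal ratio of the array's Gapdh control was 0.68 and 0.69 in EA15 and 0.64 to 0.68 in EA20. That of its Actb control was 1.17 and 1.18 in EA15 and 1.18 to 1.24 in EA20.

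**Figure D3:**
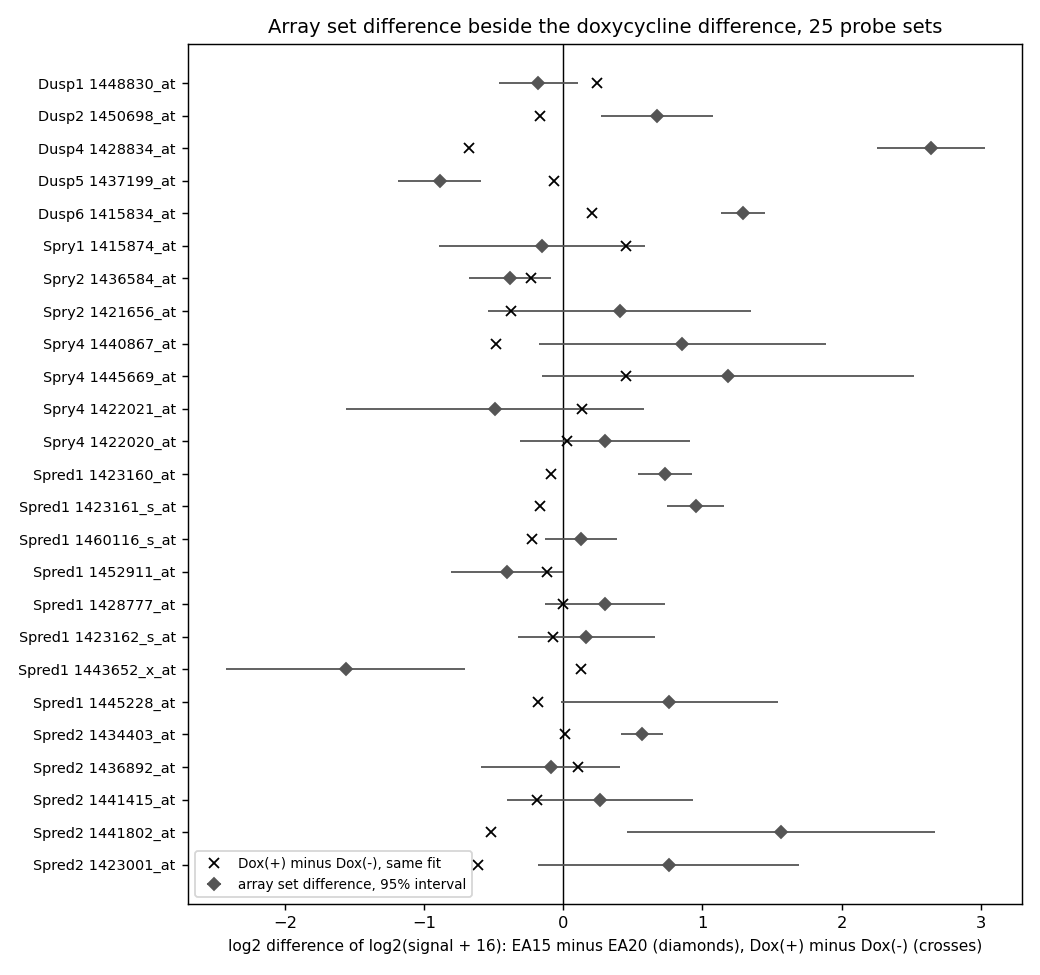
Log2 difference between the array sets, EA15 minus EA20 (diamonds with 95% intervals), beside the doxycycline difference from the same fit (crosses), for the 25 probe sets. Dusp4 stands farthest out at 2.64 on the log2 scale, while its doxycycline difference is -0.68, and Dusp5 lies at -0.89 between the sets and -0.07 with doxycycline.

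The pathway around these brakes was read through lists in which each gene is represented by its brightest probe set. From each list the 3 genes with the smallest p are named, and that pick favours separation within both sets. Of the further MAP kinase phosphatases and family relatives, 0 of 9 passed in either direction. At an unadjusted limma p under 0.05, 0 were higher and 1 lower, against 5.93% and 5.31% of all genes. The median log2 difference was -0.10, against 0.00 over 18193 genes. Dusp14, a small atypical phosphatase, was lower, with 478, 127 and 156 in Dox(+), against 577, 216 and 245 in Dox(-), a fold of 0.696 (0.553 to 0.877, limma adjusted p 0.31). Like Dusp4 it was lower in both sets and higher in EA15 (2.76-fold, limma adjusted p 8.6e-05). Dusp16, a phosphatase of JNK and p38, was at 1.23 (0.979 to 1.54), and Dusp3, which acts on ERK and JNK, at 1.14 (0.982 to 1.33).

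Of the RAS-ERK cascade itself, 15 of the 20 listed genes were read here, and 0 passed in either direction. At an unadjusted limma p under 0.05, 5 were higher and 0 lower, against 5.93% and 5.31% of all genes. Gab2, the docking protein that links cytokine receptors to RAS and PI3 kinase, gave 1383, 2559 and 2551 in Dox(+), against 1141, 1668 and 1853 in Dox(-), a fold of 1.36 (1.21 to 1.54, limma adjusted p 0.11). Within each set every Dox(+) array was above every Dox(-) array, as for 10.8% of all probe sets. The adaptor Grb2 was at 1.23 (1.12 to 1.35, limma adjusted p 0.17) and the scaffold Ksr1 at 1.19 (1.04 to 1.37, limma adjusted p 0.39). The median of the list was 0.09.

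Of other brakes on RAS and ERK, 0 of 14 passed in either direction, with a median of 0.03. At an unadjusted limma p under 0.05, 1 was higher and 0 lower, against 5.93% and 5.31% of all genes. Dok3, an adaptor that dampens receptor signalling in blood cells, gave 539, 1137 and 1070 in Dox(+), against 320, 803 and 822 in Dox(-), a fold of 1.45 (1.26 to 1.66, limma adjusted p 0.098). Its Dox(+) arrays were above its Dox(-) arrays within each set, as for 10.8% of all probe sets. Rasa2 and Rasal3, which switch RAS off, were at 1.11 (0.969 to 1.27) and 1.09 (0.969 to 1.23).

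Among 18 transcripts that ERK is known to raise, again 0 passed in either direction, and at an unadjusted limma p under 0.05, 2 were higher and 3 lower, against 5.93% and 5.31% of all genes. Ier3, an immediate early survival gene, was at 0.773 (0.688 to 0.869, limma adjusted p 0.16) and Myc at 0.777 (0.69 to 0.874, limma adjusted p 0.18). Phlda1 was at 1.34 (1.13 to 1.59, limma adjusted p 0.27). The median log2 difference of the 18 transcripts was 0.08, with -0.07 in EA15 and 0.14 in EA20. Among 9 of the 10 listed JNK and p38 kinase genes 0 passed (before adjustment, limma p under 0.05 for 1 higher and 0 lower), with a median of 0.08. Map2k4, a kinase that activates JNK, was at 1.16 (1.04 to 1.31, limma adjusted p 0.40), Mapkapk2 at 1.14 (0.999 to 1.31) and Map2k3 at 1.08 (0.975 to 1.20).

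**Figure D4:**
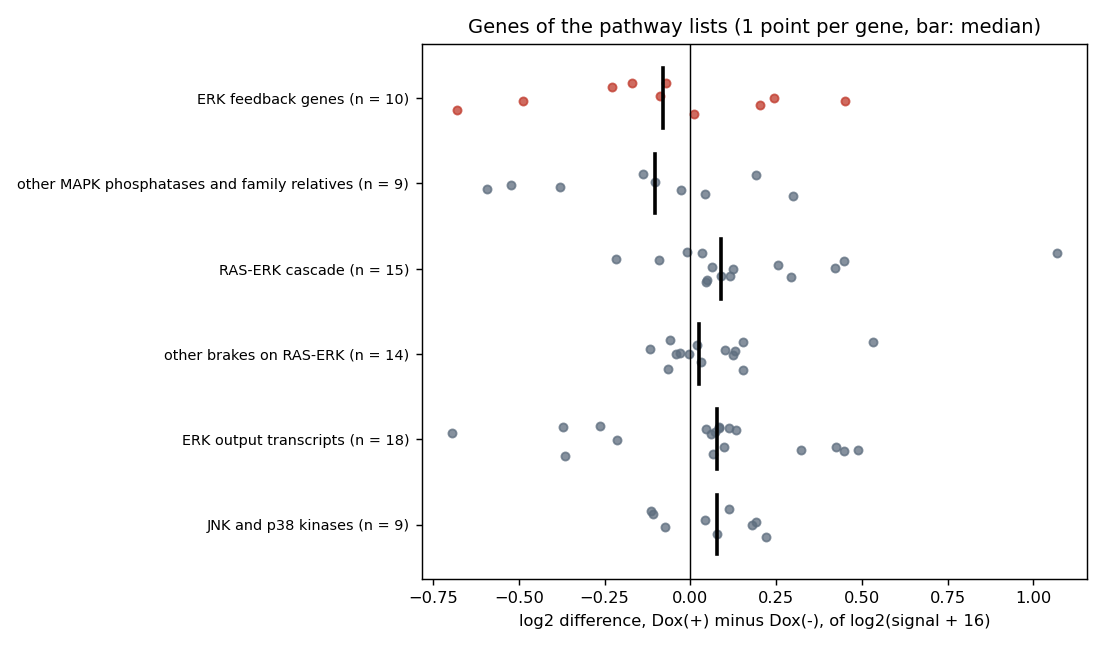
Log2 difference, Dox(+) minus Dox(-), of the genes of each list (1 point per gene, brightest probe set, fit with the array set as a block), with the median as a bar. The medians lie between -0.10 and 0.09, and no point passed the test.

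The genes whose profile was most like that of Dusp6, the member probe set with the highest signal in Dox(-), were sought among 11535 genes that were not dim. Likeness was the root mean square distance between log2 profiles centred on their mean over the 6 arrays. The nearest were Mapk6 (0.06), which encodes the atypical MAP kinase ERK3, Fgf23 (0.07), Dgkd (0.07), Donson (0.08) and Tgm1 (0.09), where the median gene was at 0.67. All 5 were 2.28-fold to 2.45-fold higher in EA15, where Dusp6 was 2.44-fold higher. That likeness follows from how they were picked. The set difference was the larger part of the Dusp6 profile, at 1.29 on the log2 scale against 0.20 with doxycycline. The nearest of the other ERK brakes was Spred1, at 0.32, and the farthest was Dusp5, at 1.04.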

How the data were processed

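RNA of 3 Dox(+) and 3 Dox(-) samples was measured on Affymetrix arrays, and groups came from the source names. The authors deposited 1 intensity per probe set and array, on a linear scale. The submitters' processing notes name Affymetrix Expression Console; its algorithm is not stated by any source used here. The 2% trimmed mean is 500 on every array, so the values carry no information on total mRNA. The number of arrays limits the precision.

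Of 45101 probe sets 64 were controls. Symbols came from the platform annotation. Signals were taken as log2(signal + 16) and fitted with limma 3.58.1 in R 4.3.3 (eBayes with a mean-variance trend, two-sided, Benjamini-Hochberg over 45037 probe sets, threshold 0.05), with doxycycline and the array set as terms. The replicate numbers follow the order of the samples and pair nothing. The members, lists and tests were chosen with earlier results of these data known. Named were all members, 3 genes of each other list by the smallest p and the 5 genes nearest to Dusp6. On data simulated for the comparison of Dox(+) with Dox(-), with 45037 probe sets, changes were put into 200 probe sets that were not dim. Of 1.5-, 2- and 4-fold changes, 46.3%, 59.7% and 92.4% were recovered, with 9 false calls. The noise there was normal and independent between probe sets, and recovery on the real arrays may be lower.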

Additional observations from a re-analysis of the deposited data

How the results depend on the processing

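Under 20 alternatives, 0 member probe sets passed in either direction, as in the fit reported. The count over all probe sets, 26 higher and 13 lower there, was less steady. It was 0 and 0 without the block, 45 higher in EA20 alone, 0 and 0 without the mean-variance trend, 40 and 22 with a pseudocount of 1, 4 and 3 with a pseudocount of 64, 64 and 46 without dim probe sets, 8 and 5 with the mean of all probe sets of a gene, and 53 and 35 at an adjusted p under 0.10. Leaving out 1 array at a time gave 0 to 31 higher and 0 to 6 lower; it was 0 in both directions without any single EA20 array (Dox(+) replicates 2 and 3, Dox(-) replicates 2 and 3). The cause was not tested. Dusp4 stayed at -0.78 to -0.54 (limma adjusted p 0.10 to 1) and Dusp6 at 0.15 to 0.25 (0.25 to 1). Dusp5 turned positive (0.06) without Dox(+) replicate 3, and Spry4 1440867_at ran from -0.85 to -0.09. The mean of the 4 Spry4 probe sets was 0.03. Each member probe set itself had a value under 17 to 19 of the alternatives, and 15 of the 25 kept their sign in all of theirs. Several of these alternatives could not turn a sign. The log2 difference is the same without the block, without the mean-variance trend, with a robust variance prior and at the other threshold. It is also the same when other probe sets are left out. Leaving out either EA15 array gives the same value as EA20 alone. The sign turned in at least 1 for 4 of the 5 dim and 6 of the 20 other probe sets. No paired analysis was possible because the labels give no replicate numbers; the array set block stands in its place.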
